A study of Sus scrofa with 55 samples.

Results

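Oocytes from follicles labelled antral stage 2 were compared with oocytes from follicles labelled antral stage 1 in the same pigs. The comparison took 23 of the 55 single-oocyte libraries of the study, 12 of stage 2 and 11 of stage 1, chosen by the stage in their labels. All were cytoplasmic RNA of single wild-type oocytes from ovaries of gilts (Sus scrofa, Landrace and Yorkshire) that were pubertal, at 208 to 210 days of age. Every gilt had been given pregnant mare serum gonadotropin (PMSG), which drives follicles to grow, at a dose of 5 IU, and ovaries were collected at a slaughterhouse 48 h later, so no untreated animal enters the comparison. Each oocyte was lysed and spun to part its RNA from its nuclear DNA, and the RNA was amplified by the Smart-seq2 full-length protocol with 16 PCR cycles. The animal was the replicate: gilt 201 gave 3 oocytes at each stage, gilt 205 gave 1 at each, gilt 801 gave 3 at stage 1 and 4 at stage 2, and gilt 803 gave 4 at each. What follicle size or other feature sets stage 1 apart from stage 2 is not given in the sources used here.

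The antral phase is the time when a follicle fills with fluid and its fully grown oocyte, arrested in meiotic prophase, stores the messages and proteins it will need to mature. The oocyte is coupled to cumulus and granulosa cells through gap junctions, takes up metabolites from them, and signals back to them with the growth factors GDF9 and BMP15. Transcription in the oocyte declines as it nears full size, and later steps run largely on stored RNA.

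All 23 libraries held counts of the zona pellucida gene ZP3 and of GDF9, the defining markers of an oocyte, but at very unequal levels. GDF9 ran from 19.2 to 3873 counts scaled to the library total (CPM) at stage 1 and from 6.21 to 3871 CPM at stage 2. In 4 stage 1 and 2 stage 2 libraries the markers of other follicle cells outweighed the oocyte genes, at 181% to 1354% of their summed CPM. The label of an oocyte rests on few counts in some of these, as few as 12 of GDF9 in oocyte 3 of gilt 803 at stage 2. Total counts ran from 220085 to 23426990 per oocyte at stage 1 (median 7329800) and from 151104 to 30486613 at stage 2 (median 11519013). The summed level of 27 granulosa and cumulus markers ran from 27.0 to 12474 CPM at stage 1 and from 57.4 to 16966 CPM at stage 2. It passed 1000 CPM in 6 of 11 stage 1 oocytes but in 1 of 12 stage 2 oocytes. Within gilts those libraries numbered 1 of 3 against 0 of 3 in gilt 201, 1 of 1 against 0 of 1 in gilt 205, 1 of 3 against 0 of 4 in gilt 801, and 3 of 4 against 1 of 4 in gilt 803. The mean within-gilt difference of that list was -1.96 ± 2.23 on the log2(CPM + 1) scale (SD, n = 4 gilts), lower at stage 2 in 4 of 4 gilts, with an exact sign-flip permutation p of 0.13 (two-sided, the smallest p that 4 gilts allow) and an adjusted p of 0.4 over 8 library measures. Theca and stroma markers were lower at stage 2 in 3 of 4 gilts, by -3.06 ± 2.75 (exact p = 0.25). Markers at 0 in every stage 1 and stage 2 library included AMH, the anti-Mullerian hormone of granulosa cells, whereas FSHR, the receptor for follicle-stimulating hormone, had counts in 8 of 11 stage 1 and 5 of 12 stage 2 oocytes. A library of stage 2, oocyte 3 of gilt 803, stood apart with 15351 CPM of blood, immune and endothelial markers.

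Another stage 2 library, oocyte 4 of gilt 801, resembled oocytes of another stage more than its own. Its log2(CPM + 1) values over 15637 genes correlated at 0.986 and 0.978 (Pearson, across genes) with 2 oocytes of the same gilt labelled stage 4. Its correlation with any other library was at most 0.859, and the highest between any 2 of the remaining 52 libraries was 0.931. Mitochondrially encoded genes took 4.68% of its counts, near the 3.62% and 4.74% of those 2 stage 4 oocytes and far from the 82.8% to 90.2% of the other 3 stage 2 oocytes of its gilt. Whether its stage label is right was not tested. It was kept as labelled and, as a choice made after the data had been seen, also left out: edgeR then called 0 of 15496 genes, with 1184 at an unadjusted p under 0.05 and a median change of -0.56. Of the 83 genes named by rule 3 changed sign without it, GDF9, COX3 and ND3, and values without it are given beside the results that it moves.

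**Figure D1:**
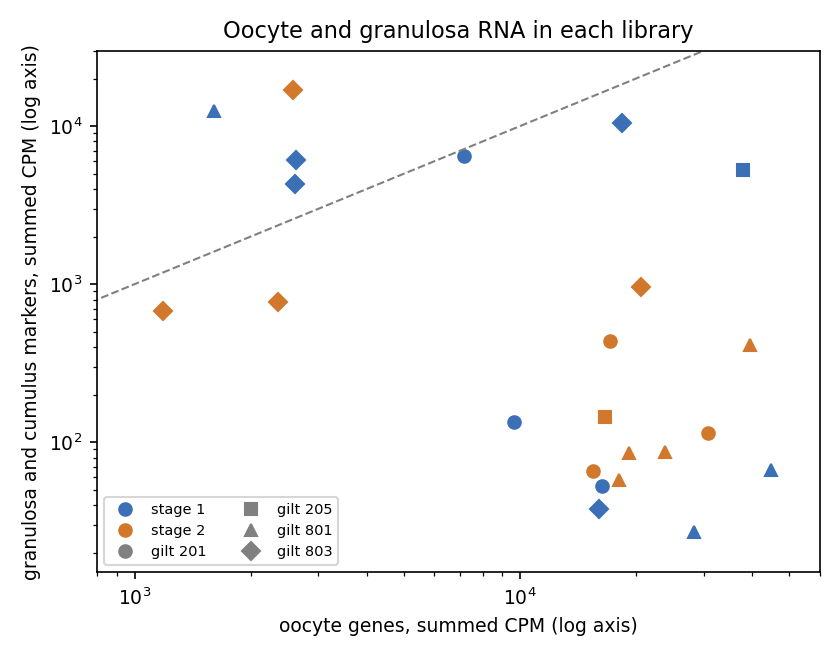
Summed CPM of the oocyte genes (x axis) and of the granulosa and cumulus markers (y axis) in each of the 23 libraries, both on log axes, with colour for stage, symbol for gilt and a dashed line where the 2 sums are equal. Above 1000 CPM of granulosa markers lie 6 of the 11 stage 1 oocytes and 1 of the 12 stage 2 oocytes, and the oocyte genes are low in several libraries of gilt 803.

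Because of that difference, results are given for all libraries and again for those here called oocyte-dominated, in which granulosa, theca and blood markers together reached at most 25% of the CPM of the oocyte genes. This limit was chosen after the marker sums had been seen. It kept 6 of 11 oocytes at stage 1 and 9 of 12 at stage 2, with at least 1 of each stage in all 4 gilts but only 1 against 1 in gilts 205 and 803. The stage 1 oocyte of gilt 205 was kept at 20.2%, with 5317 CPM of granulosa and 1875 CPM of theca and stroma markers. The stage 2 oocyte of that gilt held 144 CPM of granulosa markers. The oocyte-dominated libraries are therefore not free of RNA of other cells.

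Counts were summed per gilt and stage, and the change from stage 1 to stage 2 was estimated within gilts with edgeR's quasi-likelihood test on all 19 gilt-by-stage sums of the study. No gene passed an adjusted p of 0.05: 0 of 15637 tested genes were called (0.0% of all genes). The smallest Benjamini-Hochberg adjusted p was 0.692. At an unadjusted p under 0.05 there were 1034 genes (6.61% of all genes), of which 946 were lower at stage 2 (6.05%) and 88 were higher (0.563%). The fitted change was negative for 9847 genes and positive for 5790, with a median of -0.50 on the log2 scale. Among the 5617 genes with a mean of at least 10 CPM the median was -0.03. The median standard error of a change was 1.64 (0.92 for those 5617 genes). The spread left between the sums once stage and gilt were fitted, as the common biological coefficient of variation, was 1.24. A typical expressed gene therefore had to differ several-fold between stages before it could be told from that spread. Scaling by total counts alone, with no TMM factor, moved the median change to -1.29. All changes below are from the fit with TMM factors, and where that other scaling turns a direction the value is given beside it.

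Other choices of the data gave calls. DESeq2 on the same sums and genes called 415 genes, of which 398 were lower at stage 2 and 17 higher, and limma-voom called 0. Leaving out gilt 803, whose libraries were the shallowest on average, edgeR called 50 genes (0.315%), of which 49 were lower (0.309% of the 15881 genes then tested) and 1 was higher (0.0063%). That 1 higher gene was BMP15, which is described first.

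BMP15 (bone morphogenetic protein 15, ENSSSCG00000012310) is a growth factor of the TGF-beta superfamily made by the oocyte that acts on the surrounding granulosa cells. In the TMM-scaled sums its stage 1 level was 12.7 CPM in gilt 201, 81.3 in gilt 205, 93.3 in gilt 801 and 86.3 in gilt 803. At stage 2 it was 492 CPM in gilt 201, 2892 in gilt 205, 527 in gilt 801 and 151 in gilt 803. Stage 2 was higher in 4 of 4 gilts and the 2 groups did not overlap, a pattern seen in this direction in 124 of 15637 genes (0.793%). The fitted change was 3.33 ± 1.09 (log2, SE) with an edgeR adjusted p of 0.692, so it did not pass the test over all genes. Without gilt 803 the change was 4.51 ± 1.03 with an edgeR adjusted p of 0.0416. Oocyte 4 of gilt 801, the deepest stage 2 library, gave 57% of the stage 2 counts. With that oocyte left out the change was 3.40 ± 1.08 (edgeR adjusted p = 0.614).

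Single oocytes of each gilt showed where this difference lay. Among the oocyte-dominated libraries, the stage 1 oocytes of gilt 201 held 7.79 and 17.6 CPM of BMP15, unscaled, and its stage 2 oocytes held 55.7, 396 and 22.96 CPM. The single oocytes of gilt 205 held 291 CPM at stage 1 and 1233 CPM at stage 2. Gilt 801 gave 106 and 151 CPM at stage 1 and 156, 284, 218 and 1942 CPM at stage 2, so the lowest stage 2 oocyte lay barely above the highest stage 1 oocyte. The single such oocytes of gilt 803 held 48.7 CPM at stage 1 and 3440 CPM at stage 2. Every stage 2 oocyte was therefore above every stage 1 oocyte of its own gilt in 4 of 4 gilts, and BMP15 was the 1 gene of 15637 (0.0064%) with that pattern, while 0 genes had the opposite one (0.0%). Without oocyte 4 of gilt 801 BMP15 was again the 1 gene (0.0064%) with that pattern, against 2 with the opposite one (0.0128%). These counts over all genes used unscaled CPM. From stage 1 to stage 2 the mitochondrially encoded share went from 18.2% to 87.2% in gilt 205 and from 73.1% to 3.71% in gilt 803. That lowers the CPM of other genes in gilt 205 and raises it in gilt 803, so few genes could show either pattern. The counts were not repeated without mitochondrially encoded genes. Between gilts the BMP15 levels overlapped, since the stage 1 oocyte of gilt 205 was above 5 of the 9 stage 2 oocytes. With all 23 libraries the separation held in 3 of 4 gilts. In gilt 803 a stage 1 library that was not oocyte-dominated held 213 CPM, and 3 stage 2 libraries of that kind held 33.1 to 71.9 CPM.

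**Figure D2:**
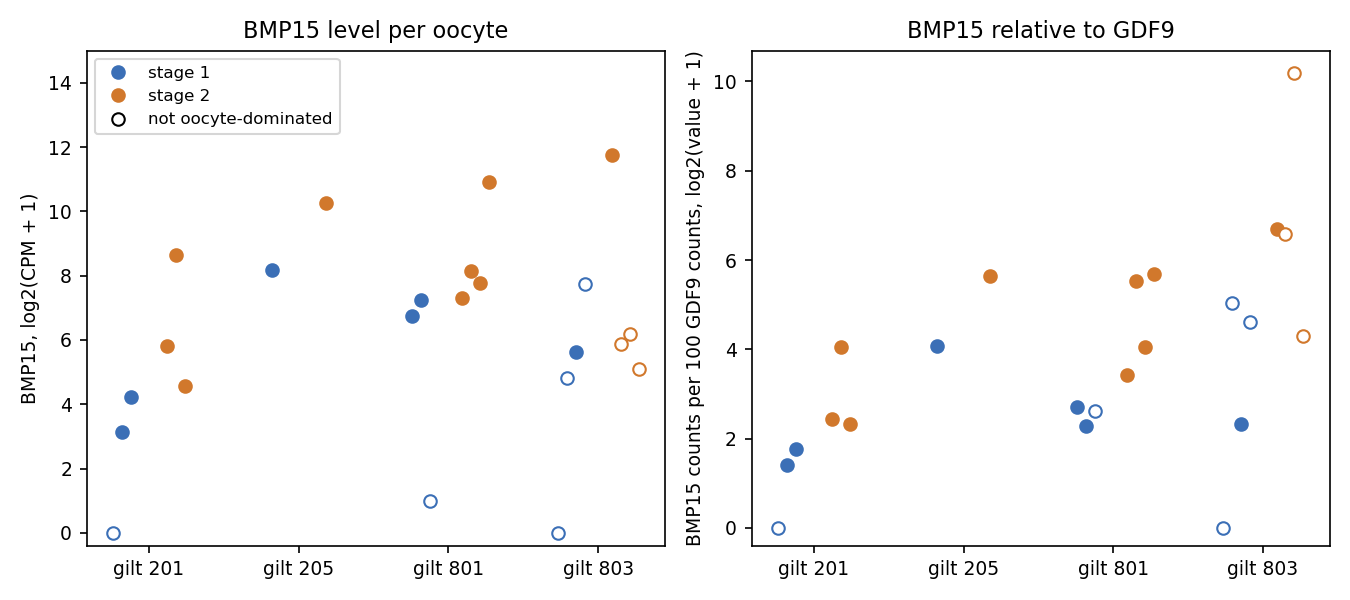
BMP15 in each oocyte by gilt, as log2(CPM + 1) (left) and as BMP15 counts per 100 GDF9 counts on a log2(value + 1) scale (right); blue is stage 1, orange is stage 2, and open circles are libraries that were not oocyte-dominated. Among filled circles every stage 2 oocyte lies above every stage 1 oocyte of its gilt in both plots, with 1 oocyte against 1 in gilts 205 and 803.

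The fit on oocyte-dominated libraries gave BMP15 a change of 3.95 ± 0.83 with an edgeR adjusted p of 0.0361, and it was the 1 gene called of 15157 tested (0.0066%). BMP15 is itself 1 of the oocyte genes that define these libraries, but leaving it out of them changed the class of 0 libraries. That call rested on the choices made. At a limit of 10% for the other-cell markers the change was 2.96 (adjusted p = 0.360), at 50% it was 3.85 (adjusted p = 1.00) and at 100% it was 3.60 (adjusted p = 0.501). The limits of 25% and 50% keep the same number of oocytes at both stages, 6 and 9, and differ in the libraries of the other stages that share the estimate of spread. The call was also absent with any 1 gilt left out, where the change ran from 3.18 to 4.16 and the adjusted p from 0.159 to 1.00. The direction was upward in every one of these fits. Without oocyte 4 of gilt 801 the change was 3.94 ± 0.85 (edgeR adjusted p = 0.0257), and BMP15 was 1 of 2 genes called.

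BMP15 was then set against other oocyte genes of the same library, a comparison chosen after its values had been seen. Per 100 counts of GDF9, the oocyte-made partner of BMP15, the 6 oocyte-dominated stage 1 libraries held 1.65 to 15.7 counts of BMP15 (median 3.97) and the 9 of stage 2 held 4.01 to 103 (median 15.5). The mean within-gilt difference of log2 values was 2.57 ± 1.41 (SD, n = 4 gilts), higher at stage 2 in 4 of 4 gilts, with an exact sign-flip p of 0.13, the smallest possible. Per 100 counts of ZP3 the ranges were 0.170 to 1.74 at stage 1 and 0.325 to 218 at stage 2, again separated within each of the 4 gilts. ZP3 itself was lower there in unscaled CPM, with every stage 2 oocyte below every stage 1 oocyte in 3 of 4 gilts (mean difference -1.003 ± 1.19 on the log2 scale, exact p = 0.25). Over all 23 libraries the ratio to ZP3 was separated in 2 of 4 gilts and the ratio to GDF9 in 3 of 4. Leaving mitochondrially encoded genes out of the total kept the separation in 4 of 4 gilts as well.

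GDF9 had no direction that held across choices. Its scaled level was 918, 517, 1972 and 831 CPM at stage 1 and 4121, 5866, 1335 and 145 CPM at stage 2, in gilts 201, 205, 801 and 803. It was higher at stage 2 in 2 gilts and lower in 2, with a fitted change of -0.27 ± 0.84 (edgeR adjusted p = 0.984). In oocyte-dominated libraries GDF9 ran from 474 to 3873 CPM at stage 1 and from 572 to 3871 CPM at stage 2, close to the same range. As a mean over such oocytes it was higher at stage 2 in 3 of 4 gilts (0.53 ± 1.01 on the log2 scale, exact p = 0.375), and every stage 2 oocyte was above stage 1 in 2 gilts. The fitted change turned to 0.30 ± 0.89 without oocyte 4 of gilt 801 and to 1.67 with limma-voom. The zona pellucida genes ZP2, ZP3 and ZP4, which encode the glycoprotein coat of the egg, split the gilts in the same way in the TMM-scaled sums. They were higher at stage 2 in gilts 201 and 205 and lower in gilts 801 and 803. In gilt 205 the direction turned with the scaling, as its TMM factors were 3.59 at stage 1 and 0.426 at stage 2. Unscaled, its single oocytes went from 2217 to 1180 CPM for ZP2, from 16716 to 5828 for ZP3 and from 5788 to 4346.5 for ZP4. Their fitted changes were -2.31 ± 1.29 for ZP2, -1.90 ± 1.10 for ZP3 and -1.66 ± 1.11 for ZP4 (edgeR adjusted p from 0.806 to 0.868). Without gilt 803, in which ZP2 was at 1850 CPM at stage 1 and at 5.41 CPM at stage 2, the 3 changes turned to 0.45, 0.42 and 0.56, and without oocyte 4 of gilt 801 they were -1.07, -0.79 and -0.52. Among the 25 measured oocyte genes 13 changes were positive and 12 negative, with a median of 0.14 against -0.50 for all genes (-0.46 against -1.29 with total counts only, and 1.11 without gilt 803). In oocyte-dominated libraries 12 were positive and 13 negative, with a median of -0.05 against -0.28 for all genes (0.22 without oocyte 4 of gilt 801). Besides BMP15, NLRP9, a member of the maternal NLRP family, and IZUMO1R, the egg receptor for sperm IZUMO1, were higher at stage 2 in all 4 gilts, a pattern seen in 574 genes (3.67% of all genes).

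A further 9 genes completed the set of 10 named for the smallest unadjusted p among genes of at least 10 CPM that were higher at stage 2 in all 4 gilts, and none of them passed the adjusted test. F3, tissue factor, which starts blood clotting, was at 6.27, 26.3, 47.0 and 61.7 CPM at stage 1 and at 56.8, 142, 65.9 and 680 CPM at stage 2, in gilts 201, 205, 801 and 803. The groups overlapped, and 64.1% of its stage 2 counts came from 1 oocyte of gilt 803. The change was 2.31 ± 0.73 over all libraries and 0.78 ± 0.97 in oocyte-dominated ones. TSPAN3, a tetraspanin of the cell membrane, was at 113 to 155 CPM at stage 1 and at 172 to 625 CPM at stage 2, with no overlap and a change of 1.53 ± 0.61. No overlap was seen either for CDKN2AIP, which regulates p53 (1.75 ± 0.72, or 0.53 ± 1.15 in oocyte-dominated libraries), for ELP2, an Elongator subunit (2.07 ± 0.86), or for TNFAIP8 (1.61 ± 0.67). The remaining genes were SLC17A1, a phosphate transporter (2.39 ± 0.85), EFNA1, an ephrin ligand (2.84 ± 1.15), DCLRE1A, a nuclease of crosslink repair (2.40 ± 1.00), and GPLD1, a phospholipase that cleaves GPI anchors (2.70 ± 1.14). All had an edgeR adjusted p between 0.692 and 0.726. In all of these 9 except F3 oocyte 4 of gilt 801 carried the largest share of the stage 2 counts, from 42.6% for GPLD1 to 72.8% for DCLRE1A. With that oocyte left out the 9 changes were still positive, from 1.45 for TSPAN3 to 2.73 for EFNA1.

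**Figure D3:**
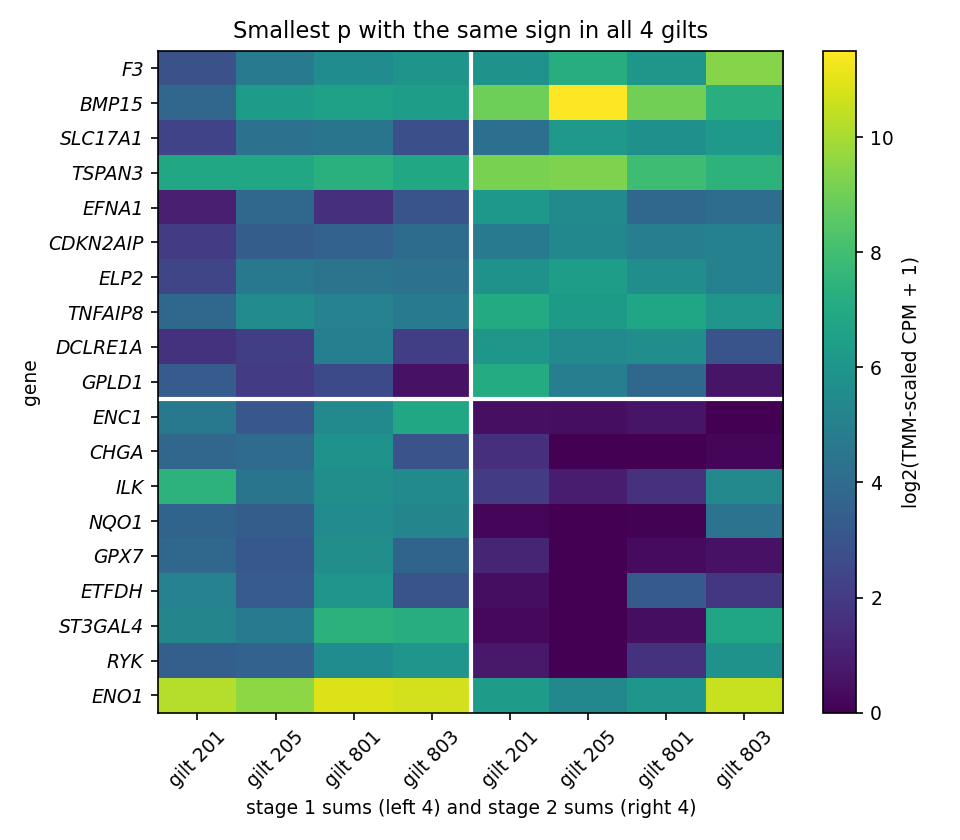
Level of 19 genes named for the smallest p with the same sign in all 4 gilts, as log2(TMM-scaled CPM + 1) in colour; the 4 left columns are stage 1 sums, the 4 right columns stage 2 sums, and the white line parts genes higher at stage 2 from genes lower. BMP15 reaches 2892 CPM in gilt 205 at stage 2, and ILK, NQO1, ST3GAL4, RYK and ENO1 remain near their stage 1 level in gilt 803.

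The genes named in the other direction were lower at stage 2 in all 4 gilts, which 1322 genes were (8.45% of all genes). ENC1, an actin-binding protein of the Kelch family, was at 24.4, 7.73, 43.9 and 118 CPM at stage 1 and at 0.389, 0.362, 0.557 and 0 CPM at stage 2, in gilts 201, 205, 801 and 803. The 2 groups were far apart, with a fitted change of -6.08 ± 1.52 (edgeR adjusted p = 0.692). It was also -6.06 ± 2.26 in oocyte-dominated libraries, where 5 of 6 stage 1 oocytes and 4 of 9 stage 2 oocytes had a count. CHGA (chromogranin A, a protein of secretory granules) was at 6.74 to 58.4 CPM at stage 1 and at 0 to 2.01 CPM at stage 2, and GPX7, a peroxidase of the endoplasmic reticulum, at 8.03 to 49.7 and 0 to 1.30 CPM. Neither overlapped, a pattern seen in this direction in 351 genes (2.24%). Oocyte 3 of gilt 801, a library rich in granulosa RNA, gave 65.8% of the stage 1 counts of CHGA and 69.8% of those of GPX7. Their changes were -8.30 ± 2.11 and -7.06 ± 1.88 over all libraries and -3.24 ± 3.73 and -3.25 ± 2.90 in oocyte-dominated ones. There CHGA had counts in 1 of 6 stage 1 oocytes and GPX7 in 3 of 6. ENO1, the glycolytic enzyme enolase, was the most abundant, at 1189, 739, 1885 and 1696 CPM at stage 1 and at 77.5, 40.6, 64.7 and 1500 CPM at stage 2. Its stage 2 level was low in gilts 201, 205 and 801 but hardly below stage 1 in gilt 803, with a change of -3.63 ± 1.01 over all libraries and -0.58 ± 0.99 in oocyte-dominated ones (0.29 without oocyte 4 of gilt 801). Also lower were ILK, a kinase at integrin contacts (-3.70 ± 0.94), NQO1, a quinone reductase (-6.72 ± 1.75), ETFDH, which passes electrons to ubiquinone (-6.60 ± 1.81), ST3GAL4, a sialyltransferase (-5.31 ± 1.46), and RYK, a Wnt receptor (-4.03 ± 1.11). In oocyte-dominated libraries ST3GAL4 turned to 0.69 ± 2.44, and ILK, NQO1, ETFDH and RYK were at -1.84 ± 1.30, -8.07 ± 3.83, -3.87 ± 2.58 and -3.75 ± 2.25. Among the stage 1 oocytes of that set, the one of gilt 205, itself rich in granulosa markers, was the highest for each. It held 75.0, 33.6, 32.2 and 40.9 CPM of ILK, NQO1, ETFDH and RYK. NQO1 had counts in only 2 of those 6 oocytes.

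ACSBG1, an acyl-CoA synthetase, was at 5.06, 8.18, 47.1 and 1.21 CPM at stage 1 and at 0, 0, 0.689 and 0 CPM at stage 2, in gilts 201, 205, 801 and 803. Stage 2 was at or near 0 in every gilt, and the fitted change was -7.31 ± 1.58 with an edgeR adjusted p of 0.692. Oocyte 3 of gilt 801, a library rich in granulosa RNA, gave 75.4% of its stage 1 counts. COX4I2, a subunit of cytochrome c oxidase, was at 3.52 to 9.24 CPM at stage 1 and at 0 CPM in 3 gilts and 3.54 CPM in gilt 803 at stage 2. IHH (Indian hedgehog), which granulosa cells secrete, was at 17.2, 72.0 and 100 CPM in gilts 201, 205 and 801 at stage 1 but at 0 in gilt 803, and at no more than 0.243 CPM at stage 2. With so few counts at stage 2, the fitted changes of ACSBG1, COX4I2 (-8.11) and IHH (-12.85) depend on the prior count of the fit.

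Once gilt 803 was left out, 49 genes fell at stage 2. CTSV, a lysosomal cathepsin, was at 73.3, 35.6 and 50.95 CPM at stage 1 and at 0.584, 0 and 0.511 CPM at stage 2 in gilts 201, 205 and 801 (change without gilt 803 of -7.89 ± 1.26, edgeR adjusted p = 0.00507). In gilt 803 it was at 91.4 and 112 CPM. CDH2 (N-cadherin, an adhesion molecule; -8.12 ± 1.43), NCAM1 (a neural adhesion molecule; -9.96 ± 1.91), SPHK1 (sphingosine kinase; -8.46 ± 1.52), PGRMC1 (a progesterone receptor membrane component; -7.50 ± 1.42) and PROS1 (protein S, an anticoagulant; -12.72 ± 2.36) did likewise, as did AMIGO2, FCGRT and IHH. ST3GAL4 and COX4I2 were also called, but they were lower in gilt 803 too, at 142 and 111 CPM and at 9.24 and 3.54 CPM. VIM (vimentin), ACTA2 (smooth muscle actin), ID2, PRDX6 and NR5A2, a nuclear receptor of granulosa cells, were also among the 50. All 50 genes had the same sign with gilt 803 included, 45 of them at an unadjusted p under 0.05 (6.61% of all genes). That fit holds the sums of gilts 201, 205 and 801, which chose the genes, so such agreement was partly built in. In the sums of gilt 803 alone, which did not choose them, 11 of 50 moved in that direction. The granulosa RNA content moved with these genes: the 6 stage 1 libraries with over 1000 CPM of granulosa markers held a median of 99.5% of the summed stage 1 CPM of the 49 lower genes (95.7% to 100%), against 85.6% over all genes. Its part in the result was not tested. In oocyte-dominated libraries 46 of the 50 were lower at stage 2 and no lower gene was called. An unadjusted p under 0.05 was found there for 21 of the 50, BMP15 in the upward direction among them, and for 523 of 15157 genes tested. That fit reuses libraries of gilts 201, 205 and 801, which chose the 50, so it is no separate check.

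**Figure D4:**
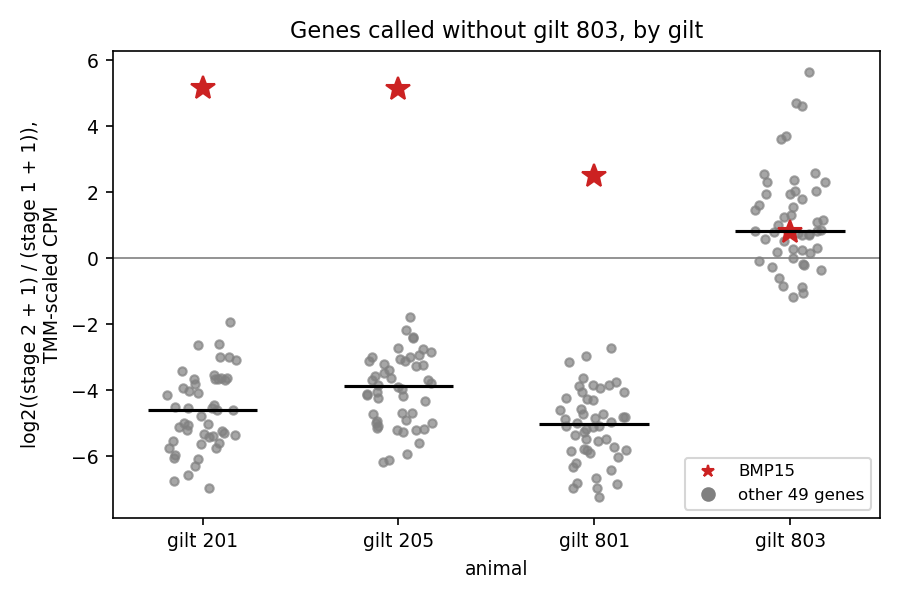
Within-gilt log2 ratio of stage 2 to stage 1 (each TMM-scaled CPM + 1) for the 50 genes called without gilt 803; a star marks BMP15, grey points the other 49 genes and bars the median of all 50. The 49 genes lie below 0 in gilts 201, 205 and 801, which chose them, and mostly above 0 in gilt 803, where 11 of the 50 kept their direction.

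The gene lists below describe the rest of the oocyte's programme. No member of any of the 25 lists passed the adjusted test with all gilts. For each list the count of positive and negative changes and the median stand beside 5790 positive, 9847 negative and a median of -0.50 over all genes. The lists were not matched to that background in level, and genes of at least 10 CPM had a median of -0.03.

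Genes of meiotic resumption had more positive than negative changes. Maturation-promoting factor, the cyclin B and CDK1 kinase that drives entry into meiotic metaphase, and its regulators had 10 positive and 8 negative changes (median 0.39), and 31 spindle, kinetochore and checkpoint genes had 20 positive and 11 negative (median 0.38). With total counts only these medians were -0.65 and -0.55, against -1.29 for all genes, so both lists lay above the median gene under either scaling while the sign of the median turned. In oocyte-dominated libraries the 2 medians were 0.14 and 0.24, against -0.28 for all genes. Without oocyte 4 of gilt 801 they were -0.03 and 0.21 there, against -0.34. CCNB1 (cyclin B1) was at 72.2, 88.3, 67.4 and 60.9 CPM at stage 1 and at 140, 285, 255 and 66.9 CPM at stage 2, in gilts 201, 205, 801 and 803. It was higher in all 4 gilts, barely so in gilt 803, with a change of 1.26 ± 0.68 (edgeR adjusted p = 0.785; 0.12 with total counts only). CCNB2 (cyclin B2), KIF18A (a kinesin) and MAD2L1 (a checkpoint protein; 1.11 ± 0.71) were also higher in 4 of 4 gilts, whereas MAPK3, a MAP kinase, was lower in 4 of 4. MOS, an oocyte kinase that acts upstream of MAP kinase, was at 71.6, 952, 166 and 223 CPM at stage 1 and at 508, 505, 542 and 86.05 CPM at stage 2, higher in 2 gilts and lower in 2 (change 0.18 ± 0.79; -1.02 with total counts only). Genes that hold the arrest through cAMP and protein kinase A had 5 positive and 12 negative changes (median -0.37), with AKAP10, an anchor of that kinase, at 0.93 ± 0.69. Cohesin and recombination genes had 13 positive and 10 negative (median 0.26, or -0.53 with total counts only), and REC8, the meiotic cohesin, was lower with no overlap at levels of at most 1.27 CPM. The cohesin median was -0.06 in oocyte-dominated libraries, and 0.03 there without oocyte 4 of gilt 801.

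Stored-message regulators showed no common direction. Genes of maternal mRNA storage and translation had 11 positive and 12 negative changes (median -0.05, or 0.48 without gilt 803), and deadenylation and decay genes 17 and 19 (median -0.03, or -0.50 without gilt 803). PARN, a poly(A)-specific ribonuclease, was higher in 4 of 4 gilts (2.06 ± 0.94), and ZFP36L1, which targets AU-rich messages for decay, was lower in 4 of 4 (-1.30 ± 0.69). PABPC1, the cytoplasmic poly(A)-binding protein, was at -1.76 ± 0.95 in all libraries but at 0.68 ± 0.95 in oocyte-dominated ones. Among DNA methylation genes 10 changes were positive and 10 negative (median -0.16), and the median turned to 0.80 without gilt 803 and to 0.11 without oocyte 4 of gilt 801. DNMT1, the maintenance methyltransferase, was at 365, 1698, 878 and 1663 CPM at stage 1 and at 2756, 2538, 3596 and 877 CPM at stage 2, higher in 3 of 4 gilts, with a change of 0.89 ± 0.83 (-0.14 with total counts only). DNMT3A, the de novo enzyme, was higher in the same 3 gilts (0.79 ± 0.72, or -0.13 with total counts only). Histone lysine methylation enzymes had 19 positive and 14 negative changes (median 0.13, or -0.71 with total counts only), with SUV39H2 at 1.65 ± 0.72 and the demethylase KDM2A lower in 4 of 4 gilts (-2.38 ± 1.08). In oocyte-dominated libraries that list had 14 positive and 19 negative changes (median -0.18, or 0.17 without oocyte 4 of gilt 801). Of 16 imprinted genes 4 changes were positive and 12 negative (median -1.31).

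Protein synthesis and energy genes had mostly negative changes over all libraries, and in oocyte-dominated libraries the ribosomal and nuclear-encoded ones did not. Of 43 cytosolic ribosomal protein genes 42 had a negative change (median -1.37), 20 of them at an unadjusted p under 0.05. In oocyte-dominated libraries 29 of the 43 were positive, with a median of 0.33. RPS3A was at 487, 75.3, 257 and 241 CPM at stage 1 and at 42.6, 24.6, 15.5 and 367 CPM at stage 2, in gilts 201, 205, 801 and 803, lower in 3 gilts and higher in gilt 803 (-2.35 ± 0.80; 0.12 ± 1.07 in oocyte-dominated libraries). Nuclear-encoded oxidative phosphorylation genes had 6 positive and 38 negative changes (median -0.56) over all libraries and 23 and 21 (median 0.11) in oocyte-dominated ones. Mitochondrial ribosomal proteins (21 positive, 31 negative) and proteasome subunits (10 positive, 20 negative) had medians of -0.23 and -0.29, and 0.12 and 0.05 in oocyte-dominated libraries. The 13 mitochondrially encoded protein genes were all negative, with a median of -0.89 (-1.46 in oocyte-dominated libraries). That direction rested on few libraries: the median turned to 0.55 without gilt 803, and to 0.67 without oocyte 4 of gilt 801, where all 13 were positive. Their share of all counts was 75.9%, 18.2%, 53.6% and 35.9% at stage 1 and 79.6%, 87.2%, 66.9% and 10.9% at stage 2 as means over the oocytes of gilts 201, 205, 801 and 803. It was higher in 3 gilts and lower in gilt 803, with an exact sign-flip p of 0.625.

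Glycolysis, pentose phosphate and pyruvate entry had 4 positive and 24 negative changes (median -1.32, or -0.40 in oocyte-dominated libraries and -0.03 in those without oocyte 4 of gilt 801). Of these 28 genes 8 were lower in all 4 gilts, as were 8.45% of all genes: ENO1, PKM, GPI, HK1, PGK1, TALDO1, LDHA and PFKL. ALDOC was higher in all 4. The median within-gilt log2 ratio of the list was -1.67, -1.91 and -0.74 in gilts 201, 205 and 801 but 0.09 in gilt 803. PKM, pyruvate kinase, was at 580, 186, 236 and 729 CPM at stage 1 and at 87.2, 16.8, 6.25 and 612 CPM at stage 2, in gilts 201, 205, 801 and 803. PFKL, phosphofructokinase, was at 18.2 to 58.7 CPM at stage 1 and at 0.612 to 4.68 CPM at stage 2 with no overlap. Redox defence genes had 3 positive and 21 negative changes (median -1.25, or -0.06 in oocyte-dominated libraries), and NQO1, TXNRD2, PRDX3, CAT, GPX8 and GCLM were lower in all 4 gilts. Fatty acid genes had 9 positive and 23 negative changes (median -0.68), although ACSL3, which activates fatty acids at lipid droplets, was higher in 3 of 4 gilts (1.60 ± 0.73). Cholesterol synthesis genes had 11 and 18 (median -0.38, or 0.09 in oocyte-dominated libraries), with the transporter NPC1 at 1.58 ± 0.75 and the reductase DHCR7 at -1.78 ± 0.94.

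Signalling genes of the TGF-beta superfamily had 14 positive and 17 negative changes (median -0.12, or -1.49 without gilt 803 and -1.08 with total counts only). INHA, the inhibin alpha subunit made by granulosa cells, was at 2179.9, 417, 275 and 250 CPM at stage 1 and at 117, 86.3, 3.31 and 147 CPM at stage 2, in gilts 201, 205, 801 and 803, with no overlap and a change of -3.31 ± 1.13 (edgeR adjusted p = 0.692). SMAD4, the shared signal mediator of the superfamily, was at 13.8 to 38.1 CPM at stage 1 and at 0.483 to 13.3 CPM at stage 2, also with no overlap. Insulin, IGF and mTOR genes had 7 positive and 18 negative changes (median -0.76), with MTOR, RICTOR and IGF1R higher in all 4 gilts and TSC2, INSR, EIF4EBP1 and IRS1 lower in all 4. Immediate early and stress genes had 9 and 19 (median -1.17), without a common direction among those of the same sign in all gilts. IER2, DNAJB1 and FOSB were higher in 4 of 4 gilts (3.67% of all genes), FOSB with no overlap. DUSP1 and DDIT4, an mTOR inhibitor (-3.76 ± 1.09), were lower in 4 of 4 (8.45% of all genes).

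The markers of other cells had the lowest medians of all 25 lists. Theca and stroma genes had 2 positive and 15 negative changes (median -3.93), granulosa and cumulus genes 5 and 20 (median -2.41), and blood, immune and endothelial genes 6 and 13 (median -1.71). COL1A1 (collagen) was at 1373, 135, 9.92 and 6.67 CPM at stage 1 and at 1.88, 20.1, 1.60 and 7.98 CPM at stage 2, in gilts 201, 205, 801 and 803, and HSD17B1, a steroid dehydrogenase of granulosa cells, was lower in 4 of 4. CD74, an antigen-presentation chaperone, was higher at stage 2 in gilt 803, at 61.4 and 246 CPM, and so was its list there, with a median within-gilt log2 ratio of 1.98. Without gilt 803 the median of the blood list was -4.42. In oocyte-dominated libraries the granulosa median was -0.36, near the -0.28 of all genes, while theca and stroma were at -2.34 and blood at -2.03. The summed blood markers of those libraries differed the other way, by 0.19 on the log2(CPM + 1) scale.

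**Figure D5:**
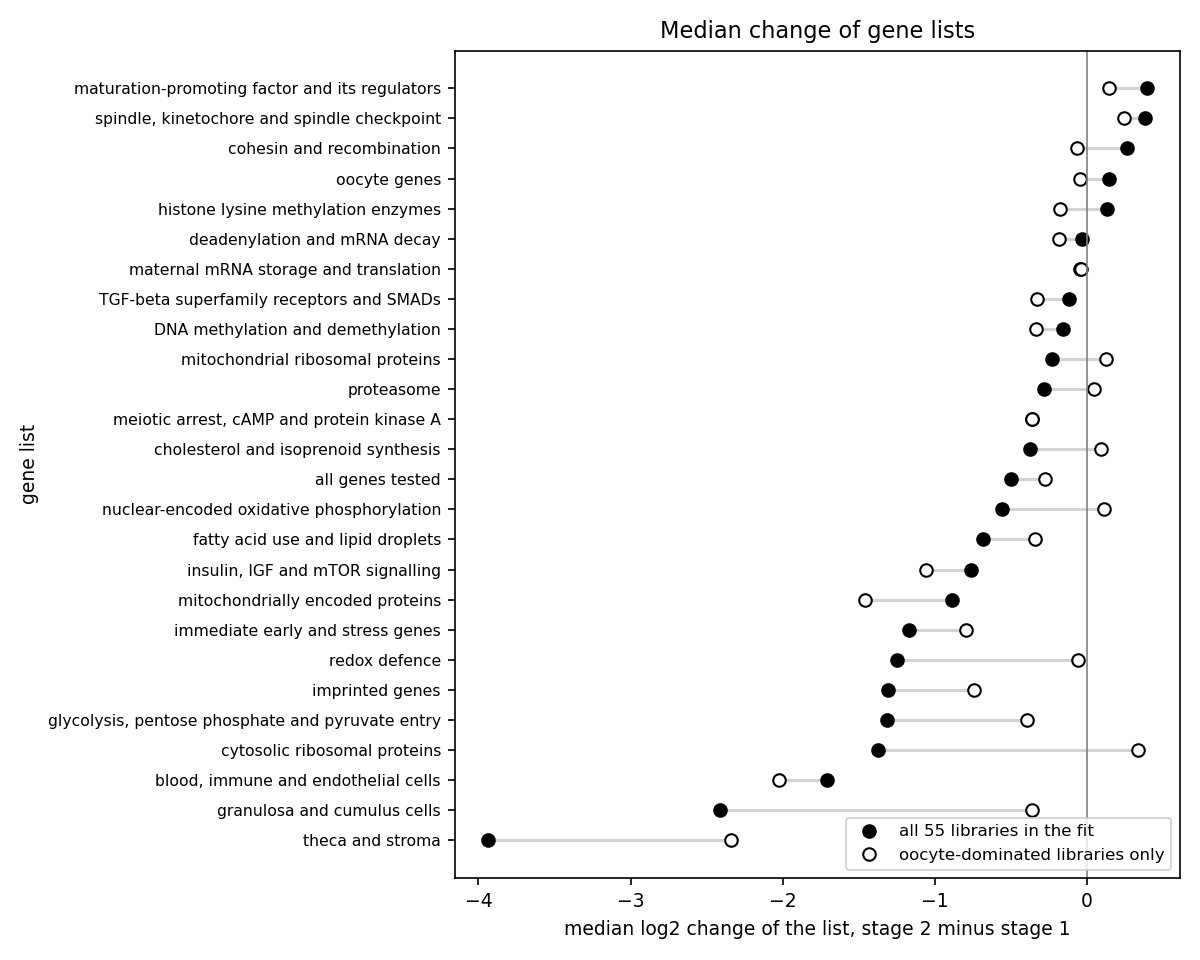
Median fitted log2 change of each gene list, stage 2 minus stage 1, with all libraries (filled) and with oocyte-dominated libraries only (open); the row of all genes tested gives the background. The ribosomal protein list lies at -1.37 with all libraries and at 0.33 with oocyte-dominated ones, and maturation-promoting factor and spindle genes lie to the right of the median gene in both.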

How the data were processed

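Gene counts were deposited by the authors as raw whole numbers per Ensembl gene ID, 1 oocyte per column (25880 IDs, 14857 with a symbol). HISAT2 2.1.0, StringTie 1.2.2, featureCounts and Trim Galore 0.4.3 are named in the submitters' processing notes, without roles. The build, the annotation and the strandedness are not stated there; positions and sequences are therefore left out. The authors also deposited a table named for TPM whose columns do not share a total; its values were treated as an other, unstated scale and used as an alternative only (23498 genes).

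Counts were summed per gilt and stage and fitted in R 4.3.3 by edgeR 4.0.16 (TMM, filterByExpr by stage, glmQLFit and glmQLFTest, stage and gilt in the model, Benjamini-Hochberg, two-sided, threshold 0.05). A standard error is the absolute change divided by the square root of F. Sums are pooled oocytes, so a deep oocyte weighs more. The titles name the gilt, which pairs the stages; deviations of same-gilt sums correlated at -0.0375, 0.0790, 0.106 and -0.0524 in gilts 201, 205, 801 and 803. Whether oocytes of a gilt came from separate follicles is not stated. Library measures were tested by exact sign-flip over 4 gilts. Genes were named by a fixed rule: the 10 smallest p in each direction with the same sign in 4 gilts, and 2 per list. To these it added 12 genes by name and the 10 smallest p without gilt 803. The 12 were GDF9, BMP15, ZP2, ZP3, ZP4, CCNB1, MOS, DNMT1, DNMT3A, ACSBG1, COX4I2 and IHH. Of these, ACSBG1 had the smallest unadjusted edgeR p of all tested genes, 9.0e-05. A gene that this rule names is not reported here. Others named, such as PKM or SMAD4, were picked by their sign or overlap. Members and lists were chosen with earlier results of these data known. Alternatives used DESeq2 1.42.0 and limma 3.58.1. The test script was tested on simulated data. Reads were amplified by PCR with no molecular identifier, so counts are copies and their number sets only counting error. Methylation and somatic cell data were not analysed here.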

Additional observations from a re-analysis of the deposited data

Results flagged for a closer look

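In 182 groups of 4 gilts (a gene or library measure at 1 stage), 31 had a highest or lowest gilt further from the others than Dixon's 95% critical value for 4 samples allows, on log2(level + 1) for genes. Chance flags about 1 in 20 groups. Levels are TMM-scaled CPM.

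Gilt 803 was the highest at stage 2 for 15 genes: NQO1 (19.8), ST3GAL4 (111), MYC (62.0), NR5A2 (59.2), CD74 (246), C1QA (98.8), COX4I2 (3.54), CTSV (112), AMIGO2 (188), CDH2 (101), SPHK1 (835), PROS1 (134), FCGRT (103), PGRMC1 (311) and NCAM1 (27.2). The summed granulosa and cumulus markers stood apart in the same place, at 10.74 on the log2(CPM + 1) scale, and so did the log10 total counts, lowest at 6.09. Of these genes, CTSV, AMIGO2, CDH2, SPHK1, PROS1, FCGRT, PGRMC1, NCAM1 and ST3GAL4 were named because they were called without gilt 803, so a high gilt 803 is partly built into the choice. Gilt 803 was the lowest at stage 2 for ZP2 (5.41) and MOS (86.05).

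At stage 1, gilt 201 was the lowest for BMP15 (12.7), ELP2 (4.35), AKAP10 (9.74) and SUV39H2 (8.31), and gilt 205 for ND3 (223) and FCGRT (17.8). Gilt 801 was the highest at stage 1 for TSPAN3 (155) and DCLRE1A (30.1). At stage 2, gilt 201 was the highest for CHGA (2.01) and KDM2A (9.41), and gilt 801 was the lowest for INHA (3.31) and the highest for ACSBG1 (0.689).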

How the results depend on the processing

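Against 0 genes called, edgeR called 111 with no low-count filter, and DESeq2 called 415. On the mean CPM of oocytes limma called 1, LIPG, an endothelial lipase, which was lower. Without 1 gilt the count ran from 0 to 50 (0 without gilts 201, 205 or 801, 50 without gilt 803). It was 0 with limma-voom, RLE factors, total counts only, a mean of at least 10 CPM, stages 1 and 2 only, each oocyte as a library, no granulosa-rich or mitochondrially encoded reads, the second table on either scale, and no library under 1000000 counts. The fit with no replicate block also called 0, with 652 genes at an unadjusted p under 0.05 against 1034 with the gilt block. DESeq2 was limited to the edgeR-filtered genes after its count on all genes, 696, had been seen.

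The oocyte-dominated limit and the checks on it were added after the data had been seen. It gave 1 call, also 1 without mitochondrially encoded genes, 5 with limma-voom, 140 with DESeq2, 6 at the 10% limit and 0 at 50% and 100%. Without oocyte 4 of gilt 801 at stage 2 it gave 2, BMP15 and RAB13. With a gilt left out it gave 2 (gilt 201), 7 (gilt 205), 0 (gilt 801) and 1 (gilt 803). BMP15 was among the calls with DESeq2 (adjusted p = 0.0082) and without mitochondrially encoded genes (0.00339), but not with limma-voom (1.00), RLE (0.311), total counts (1.00), no replicate block (0.480) or stages 1 and 2 only (1.00).

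Of 83 named genes 64 kept their sign under every alternative that gave a value, 17 to 21 for each gene and 36 for BMP15. With no replicate block the changes turned to 0.22 (AMIGO2), 1.45 (C1QA), 0.04 (CD74), 0.55 (COX3), 0.59 (GADD45A), 1.44 (GDF9), 0.20 (ND3), 0.74 (SPHK1), 0.28 (ZP2), 0.72 (ZP3) and 0.82 (ZP4). With limma-voom they turned to 1.81 (COX3), 1.67 (GDF9), 1.71 (ND3), 0.84 (ZP2), 0.93 (ZP3) and 1.03 (ZP4). Leaving out 1 gilt, the changes ran from -1.58 to 0.11 (COX3), -0.83 to 1.28 (GDF9), -1.43 to 0.16 (ND3), -3.48 to 0.45 (ZP2), -2.95 to 0.42 (ZP3) and -2.63 to 0.56 (ZP4), each positive only without gilt 803. For MOS they ran from -0.50 (without gilt 201) to 0.97. With total counts only they turned to -0.14 (DNMT1), -0.13 (DNMT3A), -0.78 (MEST) and -1.02 (MOS). Without granulosa-rich libraries they turned to 2.18 (CD74), 0.15 (GDF9) and 0.04 (PABPC1), and with oocyte-dominated libraries to 0.84 (FCGRT), 0.68 (PABPC1), 0.12 (RPS3A) and 0.69 (ST3GAL4). GDF9 and ND3 turned to 0.78 and 0.08 with stages 1 and 2 only. GDF9, ND3 and COX3 turned to 0.57, 0.24 and 0.15 as mean CPM of oocytes, to 0.65, 0.40 and 0.27 in the second table, and GDF9 and ND3 to 0.73 and 0.07 in that table scaled. Without oocyte 4 of gilt 801 at stage 2 the changes turned to 0.54 (ND3), 0.54 (COX3) and 0.30 (GDF9). The cause of these turns was not tested.

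Oocyte-dominated libraries turned the difference of granulosa markers to 0.42, of blood markers to 0.19, of ribosomal proteins to 0.45, of mitochondrial share to -4.91 percentage points and of log10 total counts to -0.14. Log10 total counts turned to -0.17 without granulosa-rich libraries. Left-out gilts gave a range of -2.69 to 28.6 percentage points for the mitochondrial share and -0.40 to 0.31 for the oocyte genes.

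The 4 gilts allow no exact p below 0.13, gilt 205 rests on 1 oocyte per stage, and 3 libraries held under 1000000 counts.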
